A study of Mus musculus with 6 samples.

Results

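The axon guidance ligands and receptors described here are 69 genes of the 18193 genes measured, namely the semaphorins with their plexin and neuropilin receptors, the ephrins with the Eph receptors, the Slits with the Robos, and the netrins with Dcc and the Unc5 receptors. They were taken by symbol from the platform annotation (names starting with Sema, Plxn, Eph, Efn or Ntn and a class letter or number, and Nrp1, Nrp2, Slit1 to Slit3, Robo1 to Robo4, Unc5a to Unc5d and Dcc), from probe sets assigned to a single gene, with the brightest probe set standing for each gene. This takes in 35 ligands, 33 receptors and Plxna4os1, an antisense RNA of the Plxna4 locus that is not a receptor. Of the protein-coding RefSeq genes with such symbols, only the receptor Ephb2 had no probe set assigned to it alone and is missing here. The tissue was mouse dorsal telencephalon at E14.5, the part of the forebrain that becomes the cerebral cortex, measured on 6 single-colour Affymetrix arrays. Wild type embryos (WT, 3 arrays) were compared with conditional knockouts (cKO, 3 arrays) in which Emx2Cre deletes ESET, an enzyme that methylates lysine 9 of histone H3 and is the product of Setdb1. Both groups are labelled male and C57BL\6. The exons removed are not named in the labels, nor is whether WT embryos carried Cre, so the Cre allele and the deletion cannot be told apart, and Emx2Cre acts in cells of the Emx2 lineage while the dissected tissue also holds vessels and migrating neurons.

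Growing axons and migrating neurons steer by cues in their surroundings. Secreted class 3 semaphorins bind neuropilins, which signal through plexins, while most other semaphorins bind plexins directly. Slits repel through Robo receptors, and netrins attract through Dcc and repel when Unc5 receptors take part. Ephrins are bound to the cell surface and signal to Eph receptors on neighbouring cells, and also back into the cell that carries them. In the developing cortex these families act in the crossing of the corpus callosum, in the exit of cortical axons, in the meeting of thalamic and cortical axons and in the entry of interneurons.

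Values are intensities on the linear scale as deposited, and fold changes are differences of mean log2(intensity + 16), cKO minus WT, tested with limma. The adjusted p is Benjamini-Hochberg over all 18193 genes, with a threshold of 0.05. Array medians lay between 91.1 and 119. Setdb1 was 1126 ± 81.9 (SD, n = 3) in WT and 633 ± 115 in cKO, a log2 fold change of -0.83 with groups that did not overlap (limma adjusted p = 0.137; -0.73 without the arrays numbered 3). WT 3 and cKO 3 stood apart. Xist, a transcript of the inactive X chromosome, was 17294 on WT 3 and 8811 on cKO 3 against at most 59.0 elsewhere, and the summed intensity of 11 erythroid genes ran from 12593 to 69671 in WT and from 11336 to 74390 in cKO. The Y-linked transcript Kdm5d was 10.2 on WT 3, which is labelled male, and 663 on cKO 3, so cKO 3 carried both Xist and Y-linked signal. Fold changes without both of these arrays are given beside the genes described below.

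Of the 69 guidance genes, 0 passed the threshold in limma. Over all genes 0.627% did. Without adjustment, 13 members (18.8%) had a p under 0.05, against 9.56% of all genes. Of these 9 were higher in cKO, where 5.17% of all genes were, and 4 were lower, where 4.39% were. In 10 members every cKO array lay above every WT array, as in 7.90% of all genes. In 5 members every cKO array lay below every WT array, as in 7.64% of all genes. Together these are 21.7% of the members, against 15.5% of all genes. The median log2 fold change was 0.03 over the members and 0.01 over all genes, and 36 members had a positive and 33 a negative value. With both arrays numbered 3 left out, 20 members were higher and 10 lower without overlap. Both directions together were 43.5% of the members against 39.4% of all genes, so that the pooled share was then close to the background. By direction, the 20 lay above and the 10 below the share of all genes in that setting, so the pooled share does not describe either direction. The share of all genes lower is given below with the signalling effectors.

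On the scale of log2(intensity + 16), the intervals limit how large a difference could have gone unseen. In 49 of the 69 members the 95% interval of the fold change stayed within a change of 1 in either direction. Of these, 37 had a mean intensity above 200 and 12 a mean of 200 or less. The pseudocount shrinks fold changes of dim genes, so a narrow interval does not bound the change in RNA of genes such as Slit3 and Epha10. The members outside the limit were mostly dim or uneven between arrays, such as Plxnb3, Epha2, Ephb4 and Ntn1. Exceptions were genes such as Sema3c and Slit2, whose interval reached past 1 on the higher side. Mean intensity was above 1000 in 17 members, between 200 and 1000 in 28 and at or below 200 in 24, where 11 were under 50.

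**Figure D1:**
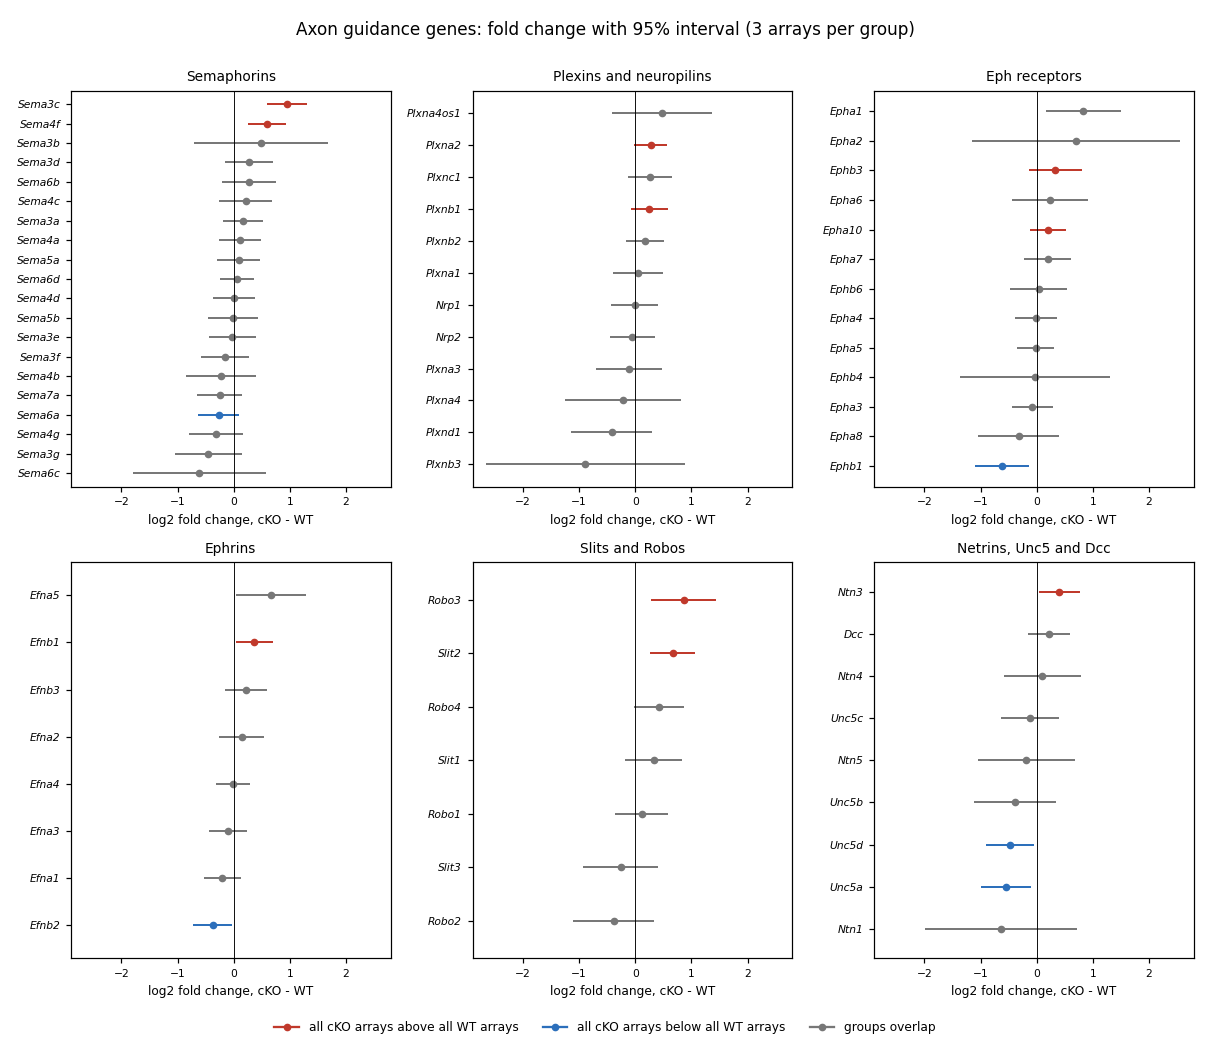
Log2 fold change (cKO minus WT, x axis) of all 69 guidance genes in 6 panels by family, with the 95% interval of the limma fit on 3 arrays per group. Red marks the 10 genes with every cKO array above every WT array, blue the 5 with every cKO array below, and grey the rest. Sema3c lies farthest to the right, at 0.94, and the widest intervals belong to dim genes such as Epha2 and Plxnb3.

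The stretches just upstream of the transcription start are printed for 5 members. These are Sema3c, Sema4f and Slit2, which had the largest values on the higher side among members with a mean intensity above 200 whose groups did not overlap, Ephb1, with the lowest value among members whose groups did not overlap, and Efnb2, the brightest member. They were chosen after their values were seen. Each is 250 bases from RefSeq (GRCm38.p6), written 5′ to 3′ on the gene's strand, with CpG dinucleotides in capitals, since CpG is the sequence at which vertebrate DNA is methylated.
Sema3c, chr5:17574566-17574815, plus strand: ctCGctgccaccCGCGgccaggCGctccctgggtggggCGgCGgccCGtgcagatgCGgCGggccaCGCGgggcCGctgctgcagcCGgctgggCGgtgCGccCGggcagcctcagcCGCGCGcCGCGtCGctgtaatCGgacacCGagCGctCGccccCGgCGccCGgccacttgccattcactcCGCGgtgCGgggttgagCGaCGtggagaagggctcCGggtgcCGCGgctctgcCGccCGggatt
Sema4f, chr6:82939770-82940019, minus strand: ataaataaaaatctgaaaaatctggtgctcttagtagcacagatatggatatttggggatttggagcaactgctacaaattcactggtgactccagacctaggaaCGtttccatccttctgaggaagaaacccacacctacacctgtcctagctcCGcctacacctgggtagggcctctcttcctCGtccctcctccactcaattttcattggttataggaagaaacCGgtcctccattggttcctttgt
Slit2, chr5:47982905-47983154, plus strand: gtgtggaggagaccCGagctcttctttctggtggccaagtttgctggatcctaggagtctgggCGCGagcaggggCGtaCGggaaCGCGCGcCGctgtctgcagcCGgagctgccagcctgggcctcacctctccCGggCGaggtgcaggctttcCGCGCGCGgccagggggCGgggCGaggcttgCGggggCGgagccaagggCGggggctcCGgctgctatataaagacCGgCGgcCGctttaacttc
Ephb1, chr9:102354694-102354943, minus strand: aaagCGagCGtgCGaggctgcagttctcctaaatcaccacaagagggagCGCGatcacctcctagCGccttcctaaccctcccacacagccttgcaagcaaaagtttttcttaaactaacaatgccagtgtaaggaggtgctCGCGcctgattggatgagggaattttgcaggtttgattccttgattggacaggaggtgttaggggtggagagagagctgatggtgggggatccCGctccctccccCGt
Efnb2, chr8:8661243-8661492, minus strand: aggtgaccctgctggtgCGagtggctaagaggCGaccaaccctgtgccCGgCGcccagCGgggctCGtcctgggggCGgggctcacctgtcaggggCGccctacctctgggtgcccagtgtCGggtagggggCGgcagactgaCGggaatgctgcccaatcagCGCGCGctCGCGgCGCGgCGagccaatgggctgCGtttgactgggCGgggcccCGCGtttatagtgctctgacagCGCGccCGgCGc
Sema3c had 39 CpG in this stretch, more than 98.4% of the promoters in the RefSeq table. Efnb2 had 27, Slit2 25 and Ephb1 10, while Sema4f had 4. The median was 15 over 74 promoters of 58 members with an entry and 6 over all 32851 promoters. The members without overlap on the higher side had a median of 16.5 over 10 promoters and those on the lower side 25 over 3. The letters CAGATG, an E-box form bound by proneural factors, were searched on both strands. They occurred in the Sema3c stretch and in 6.76% of the members' promoters, against 14.4% of all promoters. The expression data contain no measurement of methylation or of binding at these sequences.

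Among the 20 semaphorins, 2 (10%) were higher and 1 (5%) lower without overlap, against 7.90% and 7.64% of all genes. The family's median log2 fold change was 0.03. Sema3c, a secreted class 3 semaphorin that draws callosal axons toward the midline, had the smallest p of all 69 members. Its intensity was 1583, 1601 and 1593 on WT 1 to 3 and 3568, 3004 and 2716 on cKO 1 to 3. Every cKO array was far above the nearly equal WT arrays, with cKO 1 the highest. The log2 fold change was 0.94 (SE 0.14), with an interval from 0.60 to 1.28, and the limma adjusted p of 0.0559 was just outside the threshold. It passed with quantile normalization (adjusted p = 0.0462), without dim probe sets (0.00976), with a pseudocount of 64 (0.0153), with trend and robust settings (0.00435) and with array weights (0.0323). Without both arrays numbered 3 it was 1.03 (limma adjusted p = 0.195). A second, dimmer probe set of Sema3c read 93.1, 80.2 and 87.3 in WT and 161, 142 and 246 in cKO, a fold change of 0.92.

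Sema4f, a transmembrane class 4 semaphorin, was next in the family. WT arrays read 685, 625 and 560 and cKO arrays 978, 967 and 892. The groups were well apart, and the log2 fold change was 0.59 (SE 0.13, limma adjusted p = 0.158). It passed without dim probe sets (adjusted p = 0.0465) and with trend and robust settings (0.0494), and was 0.56 without the arrays numbered 3. The brightest probe set has a name ending in _x_at, a type that can match related sequences, but the other Sema4f probe set gave 0.63, again without overlap.

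The other semaphorins included 1 lower without overlap. Sema6c, a transmembrane class 6 semaphorin, was 367, 225 and 359 in WT and 262, 84.0 and 333 in cKO. Its value of -0.61 was the lowest of the family, with overlap and an interval from -1.78 to 0.55 (limma adjusted p = 0.805). The dimmer probe sets of Sema6c were at -0.14 with overlap and, near background, at 0.84 without overlap. Sema3g, a class 3 semaphorin of arterial endothelium, read 83.9, 112 and 82.3 in WT and 94.7, 53.7 and 47.7 in cKO, so the groups overlapped (-0.45, limma adjusted p = 0.661; -0.36 without the arrays numbered 3). Sema6a, a transmembrane semaphorin that binds class A plexins, was 222, 224 and 278 in WT and 182, 194 and 216 in cKO, a narrow separation with a fold change of -0.27. The brightest semaphorin, Sema6d, was 5511, 5575 and 6032 in WT and 6164, 5478 and 6197 in cKO. The groups lay over each other, with an interval from -0.23 to 0.35 and a value of 0.06, or 0.07 without the arrays numbered 3. Sema3a, the class 3 semaphorin best known for growth cone collapse, was at 0.16, and Sema3d and Sema3e were at 0.27 and -0.03. In the genome Sema3d and Sema3a are direct protein-coding neighbours, and Sema3e is separated from Sema3a by 3 further protein-coding genes.

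Of the 12 genes in the plexin and neuropilin group, 2 (16.7%) were higher without overlap and 0 lower, against 7.90% and 7.64% of all genes. Plxna2, a semaphorin receptor and the brightest of the group, was 6402, 6480 and 5917 in WT and 7506, 7913 and 7390 in cKO. The separation was clear but small, at 0.28 (SE 0.11, limma adjusted p = 0.518), and the fold change was 0.26 without the arrays numbered 3. On its 3 other probe sets the groups overlapped, at 0.12, 0.18 and 0.04, and the mean over all its probe sets was 0.16 (limma adjusted p = 0.935). Plxnb1, a receptor of Sema4d, was 1153, 1007 and 979 in WT and 1271, 1304 and 1169 in cKO (0.25, limma adjusted p = 0.627; also 0.25 without those arrays). Its highest WT array nearly met its lowest cKO array. Plxnc1, the receptor of Sema7a, was 733, 571 and 728 against 851, 718 and 868, with overlap (0.26, or 0.27 without those arrays). The neuropilins, through which class 3 semaphorins act, had values near 0, at -0.01 for Nrp1 and -0.05 for Nrp2. Nrp1 was 4066 in WT and 4021 in cKO on average. Plxnd1, the receptor of Sema3e and a gene of vessels, was at -0.42 with overlap.

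Among the 13 Eph receptors, 2 (15.4%) were higher and 1 (7.69%) lower without overlap, against 7.90% and 7.64% of all genes. Ephb1, which guides axons at the optic chiasm and in callosal development, was 677, 568 and 785 in WT and 352, 449 and 514 in cKO. All cKO arrays lay below WT, although WT 2 and cKO 3 came close. The fold change was -0.61 (SE 0.19, limma adjusted p = 0.348) and -0.62 without the arrays numbered 3. The brightest receptor of the family, Epha5, was 6106, 7256 and 7435 in WT and 7124, 6468 and 6834 in cKO. The groups overlapped, the interval ran from -0.34 to 0.30, and the sign of the fold change of -0.02 differed between settings (0.03 without those arrays). Epha3, Epha4 and Epha7, also bright, were at -0.08, -0.02 and 0.20. Epha1 was 3.56, 1.05 and 11.6 in WT and 26.3, 10.9 and 29.1 in cKO (0.83, limma adjusted p = 0.370; 0.88 without the arrays numbered 3). These intensities are near 16, the pseudocount, on which the size of that fold change depends. The further probe sets of Epha1 were at -0.05 and -0.09. Ephb3 was 156, 122 and 155 against 159, 168 and 236 (0.33). Its value was 0.17 without cKO 3 and 0.22 without both arrays numbered 3, with cKO 3 its highest array. Epha10, at 0.20, had no array above 17.1.

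**Figure D2:**
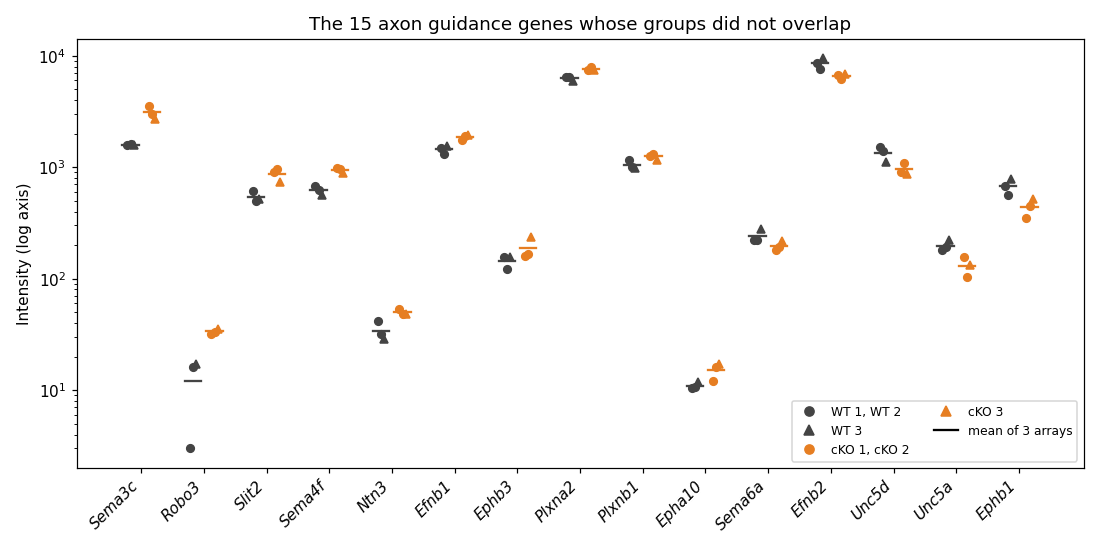
Intensity on each array (log axis) of the 15 guidance genes whose groups did not overlap, ordered from the highest to the lowest log2 fold change, with WT in dark grey, cKO in orange, triangles for the arrays numbered 3 and a line at the mean of 3 arrays. The 3 WT values of Sema3c lie on one another near 1593, while Robo3 and Epha10 lie near the bottom of the scale.

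The 8 ephrins included the brightest member, Efnb2. This ephrin-B ligand of cortical progenitors and arteries was 8672, 7557 and 9470 in WT and 6758, 6137 and 6856 in cKO. Every cKO array was lower, and the log2 fold change was -0.37 (SE 0.14, limma adjusted p = 0.441), or -0.33 without the arrays numbered 3. On its 3 other probe sets the sign was the same and the groups overlapped. Efnb1, a ligand of the same class, went the other way, with 1489, 1313 and 1542 in WT and 1761, 1897 and 1961 in cKO. Its groups did not overlap either (0.37, SE 0.13, limma adjusted p = 0.395; 0.38 without the arrays numbered 3). The signs were opposite, but the difference between Efnb1 and Efnb2 was not tested. Efna5, a ligand of EphA receptors that helps to pattern cortical areas, was 198, 156 and 283 in WT and 370, 264 and 395 in cKO, where WT 3 lay above cKO 2 (0.67, limma adjusted p = 0.459; 0.77 without the arrays numbered 3). Efna1, Efna3 and Efna4, which follow one another in the genome, were at -0.21, -0.11 and -0.01.

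The Slits and Robos had the highest family median, 0.33 over 7 genes. Without overlap 2 (28.6%) were higher and 0 lower, against 7.90% and 7.64% of all genes. Slit2, the midline repellent of cortical axons, was 610, 499 and 514 in WT and 915, 968 and 735 in cKO. The lowest cKO array was above the highest WT array, and the log2 fold change was 0.67 (SE 0.16, limma adjusted p = 0.192), or 0.75 without the arrays numbered 3. Both further probe sets of Slit2 were also higher without overlap, at 0.63 and 0.55. Slit1, the related ligand of cortical neurons, was at 0.33 with overlap, and Slit3 was near background. Robo1, the main receptor of the family by intensity, was 2810, 2226 and 2891 in WT and 2349, 3374 and 2893 in cKO. Its groups overlapped (0.11, interval from -0.33 to 0.56), the mean over its probe sets gave -0.13, and it was 0.17 without the arrays numbered 3. Robo3, the divergent Robo of commissural neurons, was 3.01, 16.2 and 17.0 in WT and 31.8, 33.3 and 35.7 in cKO. The groups were apart at intensities so low that the size of the fold change depends on the pseudocount (0.86, limma adjusted p = 0.256). Without both arrays numbered 3 the value was 0.97. Without WT 3 alone the other Robo3 probe set became the brightest and gave 0.46 (limma adjusted p = 0.869). That probe set was at 0.65 with overlap on all arrays, so the 0.46 does not show how the first probe set depends on WT 3. Robo4, an endothelial Robo and the direct genomic neighbour of Robo3, was 98.3, 70.2 and 63.1 against 107, 95.7 and 120 (0.42), with overlap between WT 1 and cKO 2. Without the arrays numbered 3 its value was 0.24.

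Among the 9 genes of the netrin group, the 4 Unc5 receptors all had negative values, with a median of -0.43. Unc5d, a netrin and Flrt receptor of upper layer neurons and their precursors, was 1503, 1397 and 1116 in WT and 909, 1102 and 863 in cKO. WT 3 and cKO 2 nearly met (-0.47, SE 0.17, limma adjusted p = 0.430; -0.53 without the arrays numbered 3). Unc5a was 181, 191 and 221 in WT and 158, 103 and 133 in cKO, again without overlap (-0.55, limma adjusted p = 0.360; -0.49 without those arrays). Unc5b and Unc5c were at -0.39 and -0.12 with overlap. Dcc, the attractive netrin receptor, was 7159, 5597 and 6720 in WT and 8192, 7554 and 6871 in cKO. Its groups overlapped, and its value of 0.22 (limma adjusted p = 0.761) was positive in the settings tried. It was 0.12 without WT 2, the lowest WT array, and 0.31 without both arrays numbered 3. Ntn1, its main ligand, was 84.1, 45.7 and 216 in WT and 69.6, 25.7 and 88.7 in cKO. It was highest on array 3 of each group, and its interval, from -1.98 to 0.69, allows a change of either sign. A dimmer probe set of Ntn1 went the other way, at 1.12 with overlap. Ntn3, a dim member, was 42.0, 32.0 and 28.6 against 53.2, 48.6 and 48.3 (0.40, limma adjusted p = 0.420; 0.34 without the arrays numbered 3).

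By role, 5 of the 35 ligands (14.3%) were higher and 2 (5.71%) lower without overlap. Of the 33 receptors 5 (15.2%) were higher and 3 (9.09%) lower. Over all genes 7.90% were higher and 7.64% lower. The median log2 fold change was 0.06 for ligands and -0.01 for receptors. Ligands and receptors that bind each other are set side by side as values only, with no test of the difference. Sema3c was at 0.94. Among its receptors, Nrp1 was at -0.01, Nrp2 at -0.05 and Plxnd1 at -0.42. Slit2 was at 0.67 beside Robo1 at 0.11 and Robo2 at -0.39. Efna5 was at 0.67, and its dimmer probe set at 0.20. Among EphA receptors, the bright Epha3, Epha4, Epha5 and Epha7 were at -0.08, -0.02, -0.02 and 0.20. The dim Epha1 and Epha2 were at 0.83 and 0.70 (SE 0.27 and 0.76), with the further probe sets of Epha1 at -0.05 and -0.09. Further probe sets existed for 9 of the 15 members without overlap, and 0 of these genes had one of the other sign. In 3 of them, Sema3c, Sema4f and Slit2, a further probe set also had no overlap in the same direction. Over all members, 45 had more than 1 probe set and in 22 of them the probe sets differed in sign. Of the 152 member probe sets 0 passed over all 45037 probe sets, where 0.275% did (lowest limma adjusted p = 0.112).

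**Figure D3:**
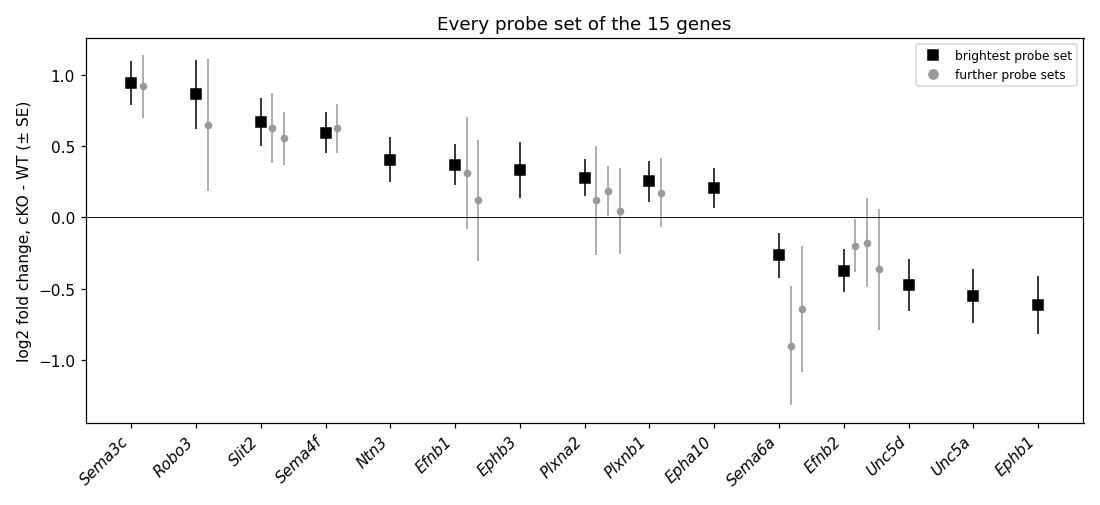
Log2 fold change (cKO minus WT) with its SE for every probe set of the 15 guidance genes whose groups did not overlap, from a limma fit over all probe sets, with the brightest probe set as a black square and further ones as grey circles. The probe sets of Sema3c, Sema4f and Slit2 lie close together above 0, and no gene has probe sets on both sides of 0.

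Other genes of the pathway were taken from 2 lists. Of 39 measured genes for cofactors and other cues, 0 passed in limma. Without overlap 7 (17.9%) were higher and 4 (10.3%) lower, against 7.90% and 7.64% of all genes. Before adjustment 4 were higher and 4 lower with a limma p under 0.05, as were 5.17% and 4.39% of all genes. Timp3, an inhibitor of extracellular metalloproteases, some of which shed guidance receptors, was 158, 154 and 190 in WT and 496, 324 and 493 in cKO. The groups were far apart (1.29, SE 0.20, limma adjusted p = 0.0639; 1.42 without the arrays numbered 3). Flrt2, a repulsive ligand of Unc5d, was 2397, 2330 and 2260 in WT and 3695, 3504 and 3352 in cKO (0.59, SE 0.11, limma adjusted p = 0.115; 0.60 without those arrays). Neo1, the Dcc relative that binds netrins and RGM proteins, was 4386, 4103 and 3594 against 5932, 7321 and 5181 (0.60, limma adjusted p = 0.290; 0.63 without those arrays). Cntn1, a neuronal adhesion molecule, was 365, 485 and 359 against 277, 263 and 212 (-0.65, limma adjusted p = 0.260; -0.61 without those arrays).

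The signalling effectors, which carry receptor signals to the cytoskeleton, leaned to lower values. Of 57 measured, 0 passed in limma. Before adjustment 0 were higher and 9 lower with a limma p under 0.05, as were 5.17% and 4.39% of all genes. Without overlap 2 were higher and 15 lower. The 15 are 26.3% of the list, against 7.64% of all genes and 9.40% of genes with a mean intensity above 200. The list's median was -0.07, and 41 of its genes had a negative value. The count of 15 became 20 of the 57 genes without the arrays numbered 3, where 19.6% of all genes were lower without overlap. It was 9 when a gene's probe sets were averaged. Srgap1, a GTPase activating protein that binds Robo receptors, was 657, 586 and 648 in WT and 318, 356 and 373 in cKO (-0.83, SE 0.13, limma adjusted p = 0.0589). It passed with quantile normalization (adjusted p = 0.0415), without dim probe sets (0.0105), with a pseudocount of 64 (0.0202), with trend and robust settings (0.0129) and with array weights (0.0343), and was -0.85 without the arrays numbered 3. The mean over its probe sets was smaller, at -0.54 (limma adjusted p = 0.275). Trim9, a ubiquitin ligase that binds Dcc, was 673, 462 and 600 against 341, 255 and 357 (-0.83, limma adjusted p = 0.200; -0.72 without those arrays). Ngef, known as ephexin, which acts downstream of EphA receptors, was 146, 141 and 134 against 83.8, 62.7 and 96.8 (-0.70, limma adjusted p = 0.184; -0.85 without those arrays). Ablim1, an actin-binding protein of netrin signalling, was 874, 941 and 839 against 561, 573 and 508 (-0.68, limma adjusted p = 0.0908; -0.66 without those arrays). Its mean over all probe sets was -0.19.

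**Figure D4:**
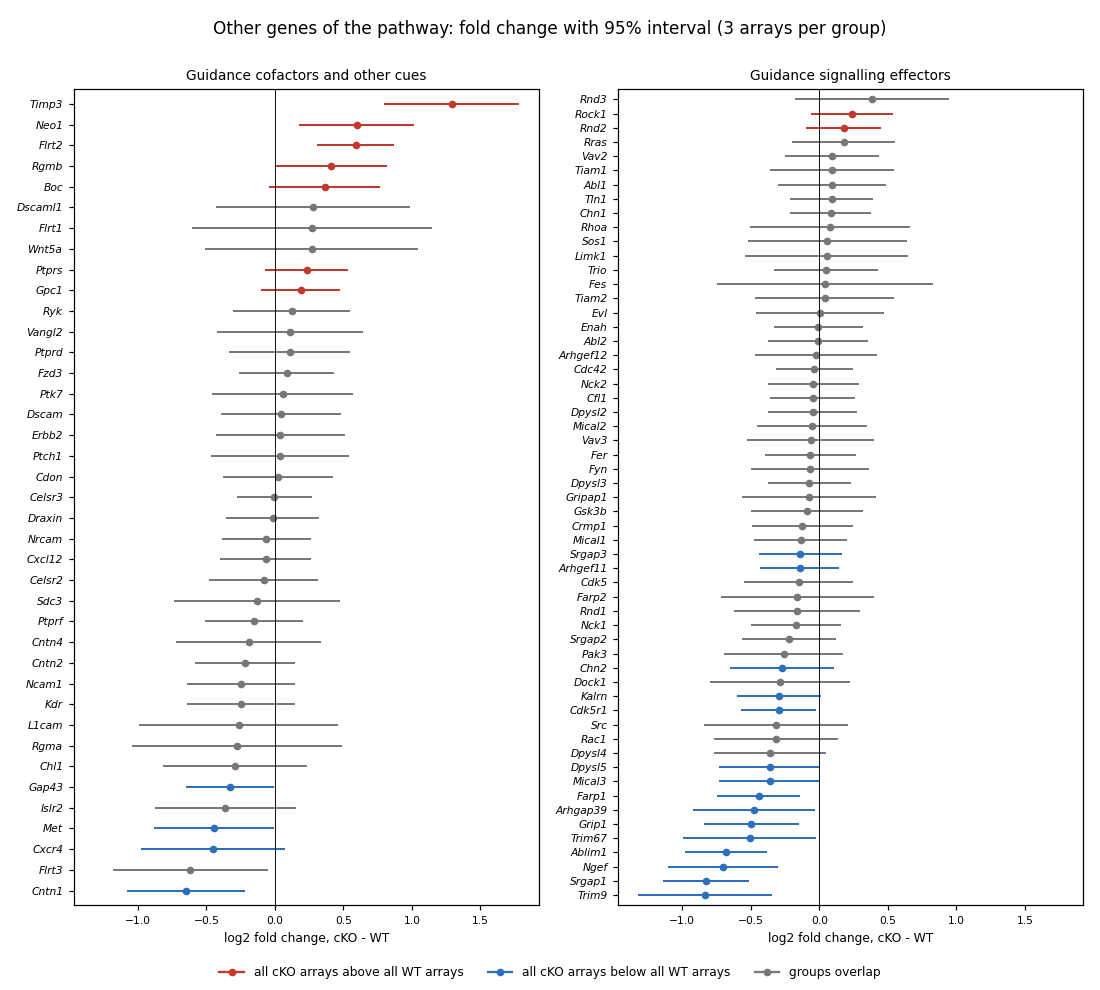
Log2 fold change (cKO minus WT, x axis) with its 95% interval for 39 cofactors and other cues (left) and 57 signalling effectors (right), coloured as in the plot by family. In the right panel 15 genes are blue and 2 red, and Srgap1 and Trim9 lie farthest to the left, both at -0.83.

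Several of these genes are used by more than one cell type, and several lists of cell type markers held genes whose groups did not overlap. Among the markers only Reln, a Cajal-Retzius gene, passed in limma (adjusted p = 0.0266). Over all genes 7.90% were higher and 7.64% lower without overlap. Of 13 endothelial markers 0 were higher and 5 (38.5%) lower without overlap. Their summed intensity was 2249 to 2534 in WT and 1800 to 1995 in cKO. Of 9 Cajal-Retzius markers 6 (66.7%) were lower without overlap, with sums of 7866 to 8326 and 3582 to 4527. Pericyte markers (8 measured) went both ways, with 2 (25%) higher and 3 (37.5%) lower, and sums of 2357 to 2616 and 1912 to 2046. Ventral telencephalon and interneuron markers (15 measured) included 3 (20%) higher and 0 lower, with sums of 10031 to 12247 and 11446 to 14365. Of 12 dorsal telencephalon markers 2 were higher and 4 lower without overlap (33.3% lower, against 7.64% of all genes). The 4 were Emx2 at -0.83, a gene of cortical progenitors, Eomes at -0.63, a gene of intermediate progenitors, and Fezf2 at -0.54 and Sox5 at -0.32, genes of deep layer neurons. Emx2 is also the gene that names the Emx2Cre driver, and whether the Cre allele itself changes its value was not tested. The sums of the 12 markers were 69095 to 73438 and 62972 to 71518, so the defining markers of the labelled tissue were present in both groups. Sums of 12 meningeal and mesenchymal markers ran from 657 to 976 in WT and from 594 to 2586 in cKO, of 10 microglial markers from 1640 to 1939 and from 1328 to 1794, and of 10 muscle markers from 382 to 695 and from 302 to 1360. In each list 0 markers were below 16 on every array. Some barely passed it, such as Lhx8 and Twist1, each at 16.1 on its highest array, so not every marker was shown to be expressed. The part of these differences in the values of vessel genes such as Efnb2, Plxnd1, Sema3g and Robo4, or of any other member, was not tested. In such bulk samples fewer cells of a type and less RNA per cell cannot be told apart.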

How the data were processed

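Transcripts of 6 E14.5 dorsal telencephalon samples (3 WT, 3 cKO) were analysed from the deposited array intensities, 1 value per probe set. Per the submitters' processing notes the authors used the Affymetrix Expression Console. How probes were summarised is not given in the sources used here. Means trimmed by 2% ran from 497.2 to 497.7, so the deposited intensities share a scaling. Detection calls were not used. After log2(intensity + 16), which shrinks fold changes of dim genes, limma 3.58.1 (R 4.3.3) compared the genotypes with no further normalization, and Benjamini-Hochberg adjustment ran over the 18193 genes named alone by a probe set. Groups came from sample titles. Nothing in the labels states that arrays are separate litters, so p-values measure the spread between these samples. The 3 arrays per group limit precision.

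The named genes are Setdb1, members past the threshold (0 here), the 3 smallest p and the highest WT intensity in each family, up to 4 genes per pathway list, and members a count turns on. Sema3a, Sema3d, Sema3e, the neuropilins and other members named with a fold change alone were added for their role or position. Members and lists were chosen with earlier results of these data known. The fit was tested on simulated data.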

Additional observations from a re-analysis of the deposited data

How the results depend on the processing

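The count of guidance genes past the threshold was 0 in the fit reported and with arrays centred on medians, a pseudocount of 1, probe sets ending in _x_at or _s_at left out, probe sets averaged, the arrays numbered 3 left out or as a block, and each array left out in turn. It was 1 with quantile normalization, a pseudocount of 64 or array weights, and 2 with dim probe sets left out or with trend and robust settings. Cofactors and other cues went from 0 to 1 with centring and to 2 with dim probe sets left out, a pseudocount of 64 or trend and robust settings. Signalling effectors went from 0 to 1 with quantile normalization or array weights and to 2 with those last 3 settings. The cause was not tested, though leaving out dim probe sets reduces the genes tested to 10688. Without both arrays numbered 3, members higher without overlap numbered 20 and members lower 10, together 43.5% of the members against 39.4% of all genes. With 1 array left out they numbered 11 to 17 and 7 to 9. The shares of all genes were then 12.1% to 13.8% and 10.2% to 13.5%, since fewer arrays separate more easily. The lower effectors, a count chosen after seeing the data, numbered 9 with averaged probe sets. With 1 array left out they numbered 16 to 19 of 57, where 10.2% to 13.5% of all genes were lower without overlap. The members' median was -0.02 with centring, where all genes had -0.04. Of 31 named genes 28 kept their sign in every setting, and the exceptions were Epha5, Robo1 and Sema6d. Same-numbered arrays deviated together with correlations of 0.07, 0.17 and 0.37, and WT 1 and cKO 1 correlated better with other numbers, so the numbers were not taken to pair the samples. With the replicate block 0 members passed, and calls over all genes went from 114 to 17.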

Other observations

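The arrays numbered 3 also differed from their groups within the guidance genes. Of the 69 members 17 were highest on array 3 in both groups (24.6%, against 20.7% of all genes) and 18 were lowest there in both groups (26.1%, against 20.8%). The netrin gene Ntn1 and the plexin genes Plxnd1 and Plxna4 were among the former. Plxna4 was 713, 376 and 1208 in WT and 556, 477 and 775 in cKO. Plxna3, a relative of Plxna4, was lowest on array 3 in both groups, at 1705, 1800 and 1210 in WT and 1788, 1496 and 1111 in cKO. These genes were picked after their values were seen.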
